A study of Danio rerio with 20 samples.

Results

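Genes of 7 families of amino acid transporters were followed in the livers of larval zebrafish that were exposed or not exposed to arsenite, with or without the arsenic methyltransferase As3mt. Members were the Ensembl identifiers whose gene symbol, ignoring case, starts with slc1a, slc3a, slc6a, slc7a, slc36a, slc38a or slc43a, and slc7a11, the light subunit of the cystine exchanger, was left out. The rule took 80 of 32105 gene identifiers: 12 of SLC1, 3 of SLC3, 27 of SLC6, 17 of SLC7, 2 of SLC36, 13 of SLC38 and 6 of SLC43. One of them, SLC7A6OS, matches by name only, since it is called after its place opposite SLC7A6 and is not an amino acid transporter. Because 27 members share a symbol with another identifier, the Ensembl identifier follows the symbol of those, and many symbols are printed in human spelling, as in the table of gene names.

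The 4 groups were as3mt-/- larvae with 1 mM sodium arsenite, as3mt-/- larvae without arsenite, wild-type larvae with 1 mM sodium arsenite and wild-type larvae without arsenite, with 5 libraries each. The mutants lacked 8 bp of as3mt exon 3 in all tissues after CRISPR editing, came from an incross of homozygous F2 fish and were on the ABNYU background, while the wild type was TAB5, so comparing genotypes compares lines of unlike strain as well. Arsenite was present from 96 h after fertilization, and livers were dissected at about 119 h. Each library was polyadenylated RNA of 12 to 15 pooled livers at 5 days after fertilization, and p-values therefore measure the spread between pools of livers.

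Amino acids are charged or polar and cross membranes through carriers. In mammals, SLC1 proteins take up glutamate and aspartate or exchange neutral amino acids, SLC7 proteins carry arginine and lysine alone or, bound to a heavy subunit of SLC3, exchange amino acids across the membrane. SLC38 proteins take up glutamine, alanine and other small neutral amino acids with sodium, and SLC43 proteins let large neutral amino acids leave cells. Some SLC36 proteins move small amino acids with protons. SLC6 proteins use sodium and chloride to import neurotransmitters, taurine, glycine and neutral amino acids. The mammalian liver uses these carriers to draw alanine and glutamine from blood for making glucose and urea and to release what it does not use. Roles given below are those of the mammalian proteins unless a sentence says otherwise.

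Libraries held 25406597 to 42047561 counts. Of the 80 members, 49 passed the filter on low counts, and the other 31 were not tested, with 2 of these without a count in any library, a highest mean over the 20 libraries of 0.483 CPM (the count scaled to library size) and a highest value in one library of 2.94 CPM. Levels are given as CPM scaled by TMM factors, and a gene was called when its edgeR quasi-likelihood adjusted p was under 0.05, with Benjamini-Hochberg adjustment over 16389 genes. Changes are on the log2 scale with their standard errors. AS3MT, the targeted gene, lay between 8.62 and 18.7 CPM in exposed mutants, 61.8 and 81.1 CPM in unexposed mutants, 29.8 and 73.6 CPM in exposed wild type and 119.2 and 134.1 CPM in unexposed wild type. Hepatocyte markers were abundant in every group, with summed levels of 30717 to 46721 CPM in exposed mutants, 167872 to 196767 CPM in unexposed mutants, 50509 to 91907 CPM in exposed wild type and 195261 to 212850 CPM in unexposed wild type, and all 22 fell with arsenite in both genotypes. In a whole liver, fewer cells of a type and less RNA per cell cannot be told apart. TMM factors were 1.06 to 1.54 in exposed libraries and 0.702 to 0.856 in unexposed libraries. Scaling by the total count alone therefore moved the median log2 change of all genes with arsenite to 0.83 in mutants and to 0.75 in wild type. Changes below are after TMM scaling. Among the members, unexposed mutant replicate 5 and unexposed wild-type replicates 2 and 4 stood apart for several genes. The values without them are given for most results that rest on them. All groups share one estimate of the spread. Leaving out a library can therefore move an adjusted p of a comparison it is not part of, while the change itself stays.

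With arsenite, members fell more often than they rose in both genotypes. In mutants 11 of the 49 tested members rose and 23 fell, which is 22.4% and 46.9%, while of all tested genes 61.8% were called, 31.5% higher and 30.3% lower. In wild type 15 rose and 23 fell, which is 30.6% and 46.9%, while of all tested genes 53.3% were called, 28.7% higher and 24.6% lower. The median change of the tested members was -0.76 in mutants and -0.45 in wild type, against 0.00 and 0.03 over all genes. When libraries were scaled by their total count, 18 members rose and 14 fell in mutants and 20 rose and 12 fell in wild type, and the members' median moved to 0.09 in mutants and 0.28 in wild type, still below the median of all genes under that scaling. The 5 exposed and 5 unexposed libraries did not overlap for 23 members in mutants and 25 in wild type, beside 48.2% and 34.7% of all tested genes.

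The genotypes shared most directions. With arsenite 21 members fell and 9 rose in both genotypes, and no member was called in opposite directions. Of all tested genes 21.7% were lower in both, 24.7% were higher in both and only 0.11% were called in opposite directions. A further 2 members rose and 2 fell in mutants alone, 6 rose and 2 fell in wild type alone, and 7 passed in neither, which does not show that those responses differed. Of the 21 members lower in both, 19 (90.5%) had the larger fall in mutants, and among all genes lower in both this held for 2837 of 3549 (79.9%). By family, called members in mutants and in wild type mostly fell in SLC6 (1 higher and 8 lower of 13, then 2 and 7), SLC7 (2 and 6 of 12, then 3 and 5) and SLC43 (1 and 3 of 6, then 1 and 4), while under total-count scaling these counts were 4 and 6, then 4 and 5 for SLC6, 2 and 3, then 4 and 2 for SLC7, and 1 and 2, then 1 and 2 for SLC43. In SLC38 5 rose and 3 fell of 10 in mutants, and 6 rose and 4 fell in wild type. Both SLC36 genes had positive changes, in SLC3 1 rose and 2 fell in mutants and 0 rose and 2 fell in wild type, and 3 of the 12 SLC1 genes could be tested.

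**Figure D1:**
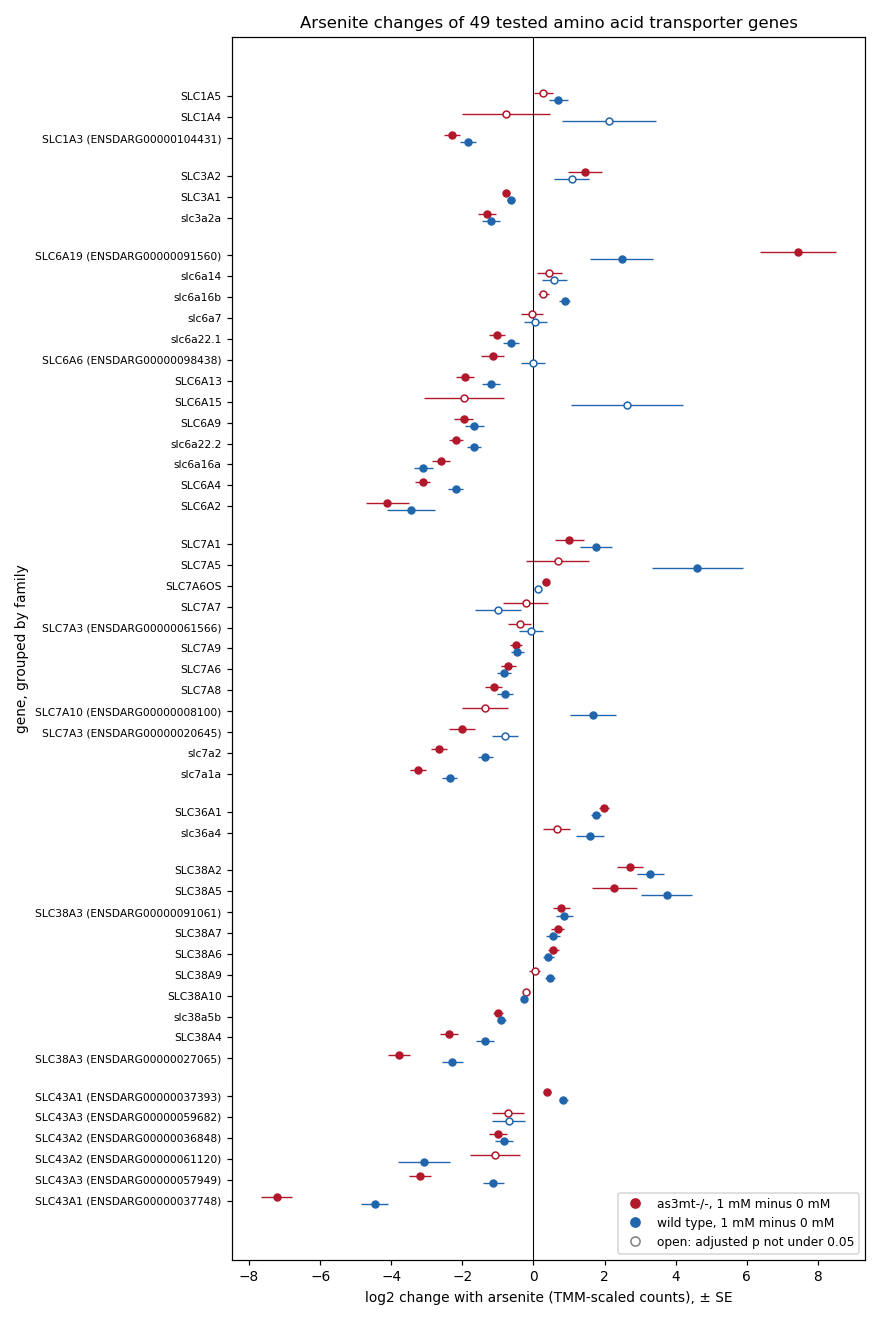
Log2 change with arsenite (x axis, TMM-scaled counts) for the 49 tested members, grouped by family down the page, in as3mt-/- (red) and wild type (blue), with bars of 1 standard error and open symbols where the adjusted p was not under 0.05. SLC6A19 (ENSDARG00000091560) lies farthest right at 7.44 and SLC43A1 (ENSDARG00000037748) farthest left at -7.22, both in mutants.

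The sodium-coupled carriers of small neutral amino acids, SLC38, split in both directions. SLC38A4, the system A carrier of hepatocytes, fell by 2.38 ± 0.26 in mutants (edgeR adjusted p = 1.03e-07) and by 1.36 ± 0.25 in wild type (edgeR adjusted p = 0.000121). Its levels were 702.0, 507.6, 637.3, 477.3 and 827.6 CPM in exposed mutants, against 3651.6, 2962.4, 3377.2, 1521.1 and 4890.1 CPM in unexposed mutants. In wild type they were 797.9, 859.1, 1129.6, 924.4 and 1412.7 CPM with arsenite, against 2083.1, 3858.5, 2568.7, 2038.2 and 2583.3 CPM without. Every exposed library lay below every unexposed library of its genotype. SLC38A2, the system A carrier found in most tissues and raised in mammalian cells when amino acids are scarce, moved the other way. It stood at 42.9, 36.6, 77.4, 68.1 and 56.2 CPM in exposed mutants, against 4.11, 16.8, 6.00, 6.55 and 9.40 CPM in unexposed mutants, a rise of 2.71 ± 0.36 (edgeR adjusted p = 1.65e-06). Among wild-type libraries it had 52.8, 38.4, 49.4, 25.3 and 27.2 CPM with arsenite, against 6.21, 4.95, 2.69, 4.24 and 1.83 CPM without, a rise of 3.29 ± 0.38 (edgeR adjusted p = 4.52e-07). The groups did not overlap in either genotype. On a later zebrafish assembly than the one counted, SLC38A4 and SLC38A2 lie with 1 protein-coding gene between them.

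The system N carriers, which move glutamine and histidine, held copies that went opposite ways. SLC38A3 (ENSDARG00000027065) was at 13.4, 6.01, 14.2, 11.7 and 13.7 CPM in exposed mutants, against 100.9, 117.2, 238.7, 189.2 and 162.6 CPM in unexposed mutants, a fall of 3.78 ± 0.31 (edgeR adjusted p = 1.98e-09). Wild type showed 9.15, 19.3, 12.7, 10.5 and 18 CPM with arsenite, against 38.7, 98.9, 59, 73.9 and 67.8 CPM without, a fall of 2.28 ± 0.29 (edgeR adjusted p = 1.79e-06). Exposed libraries of both genotypes thus ended at like levels below all unexposed ones. The second copy, SLC38A3 (ENSDARG00000091061), averaged 246.1 ± 40.8 CPM in exposed mutants and 143.1 ± 50.5 CPM in unexposed mutants (SD, n = 5 each), a rise of 0.78 ± 0.24 (edgeR adjusted p = 0.00715) with 1 unexposed library inside the exposed range. In wild type it averaged 250.2 ± 64.2 CPM with arsenite and 136.7 ± 45.7 CPM without (SD, n = 5 each), a rise of 0.87 ± 0.24 (edgeR adjusted p = 0.00411) without overlap.

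SLC38A5, another system N carrier, was nearly silent without arsenite in all libraries but one. It was at 3.65, 2.90, 7.51, 5.94 and 6.27 CPM in exposed mutants, against 0.331, 0.433, 0.0827, 0.23 and 4.17 CPM in unexposed mutants. The rise of 2.27 ± 0.63 (edgeR adjusted p = 0.00372) became 4.27 without unexposed mutant replicate 5 (edgeR adjusted p = 8.45e-08). Wild type had 7.22, 3.52, 6.4, 4.31 and 3.90 CPM with arsenite, against 0.274, 0.721, 0.379, 0.363 and 0.176 CPM without, a rise of 3.75 ± 0.72 (edgeR adjusted p = 0.000187). Its paralogue slc38a5b fell without overlap in both genotypes, by 1.00 ± 0.13 in mutants (edgeR adjusted p = 1.55e-06) and by 0.90 ± 0.13 in wild type (edgeR adjusted p = 9.41e-06), and neither call was kept under total-count scaling (-0.15 and -0.18, edgeR adjusted p 0.349 and 0.275). The lysosomal carrier SLC38A7 rose by 0.68 ± 0.19 in mutants (edgeR adjusted p = 0.0036) and by 0.55 ± 0.19 in wild type (edgeR adjusted p = 0.0195), the second not passing without exposed wild-type replicate 3 (0.34, edgeR adjusted p = 0.096). SLC38A9, the lysosomal arginine sensor upstream of mTORC1, was at 0.03 ± 0.15 in mutants (edgeR adjusted p = 0.886) and rose by 0.46 ± 0.15 in wild type (edgeR adjusted p = 0.0145). The difference between these responses of SLC38A9 did not pass (edgeR adjusted p = 0.286). SLC38A6, another neutral carrier, rose by 0.56 ± 0.15 in mutants (edgeR adjusted p = 0.00269) and by 0.42 ± 0.15 in wild type (edgeR adjusted p = 0.024), the second ending without exposed wild-type replicate 3 or unexposed wild-type replicate 2 (0.33 to 0.38, edgeR adjusted p 0.0535 to 0.0711).

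Among the carriers of arginine, lysine and ornithine, slc7a2, whose mammalian counterpart is the main one of hepatocytes, fell. It stood at 113.8, 68.9, 69.8, 54.6 and 103.3 CPM in exposed mutants, against 499.8, 518.6, 441.8, 424.4 and 689.2 CPM in unexposed mutants, a fall of 2.65 ± 0.22 (edgeR adjusted p = 2.39e-09). In wild type it stood at 111.8, 135.3, 143.9, 162.2 and 233.9 CPM with arsenite, against 310.3, 491.8, 361.4, 413.2 and 426.0 CPM without, a fall of 1.35 ± 0.21 (edgeR adjusted p = 2.04e-05). Neither pair of groups overlapped. slc7a1a, a form of the widely expressed cationic carrier, averaged 0.713 ± 0.155 CPM in exposed mutants and 6.82 ± 1.08 CPM in unexposed mutants, and 1.22 ± 0.364 CPM in exposed wild type and 6.25 ± 1.78 CPM in unexposed wild type (SD, n = 5 each). Its falls were 3.25 ± 0.23 (edgeR adjusted p = 2.36e-10) in mutants and 2.36 ± 0.22 (edgeR adjusted p = 3.56e-08) in wild type, again without overlap.

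Its paralogue SLC7A1 rose at a low level. Values were 1.15, 1.5, 1.26, 1.62 and 2.51 CPM in exposed mutants, against 0.284, 0.541, 0.455, 0.517 and 2.11 CPM in unexposed mutants. The rise of 1.01 ± 0.41 there (edgeR adjusted p = 0.0377) was 1.81 without unexposed mutant replicate 5 (edgeR adjusted p = 6.53e-05) and did not pass without any 1 of unexposed mutant replicates 1 to 4 or exposed mutant replicates 2, 4 and 5 (0.79 to 1.03, edgeR adjusted p 0.05 to 0.113), nor with the level of exocrine pancreas markers as a covariate (0.72, edgeR adjusted p = 0.112). Wild-type libraries had 1.34 to 1.62 CPM with arsenite and 0.144 to 0.548 CPM without, a rise of 1.76 ± 0.44 (edgeR adjusted p = 0.00203). SLC7A3 (ENSDARG00000020645), a cationic carrier best known from brain, had 46.3, 38.7, 78.3, 50.1 and 66.9 CPM in exposed mutants, against 255.6, 239.4, 162.1, 62.2 and 418.1 CPM in unexposed mutants, a fall of 2.02 ± 0.37 (edgeR adjusted p = 8.15e-05). Unexposed mutant replicate 4 lay inside the exposed range. In wild type its change of -0.80 ± 0.36 did not pass (edgeR adjusted p = 0.0675), though it did without unexposed wild-type replicate 3 (-0.94, edgeR adjusted p = 0.0417) or without unexposed mutant replicate 4 or 5 (-0.80, edgeR adjusted p 0.0233 and 0.0462). The other copy, SLC7A3 (ENSDARG00000061566), passed in neither genotype, at -0.39 ± 0.32 in mutants (edgeR adjusted p = 0.3) and -0.07 ± 0.33 in wild type (edgeR adjusted p = 0.864).

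**Figure D2:**
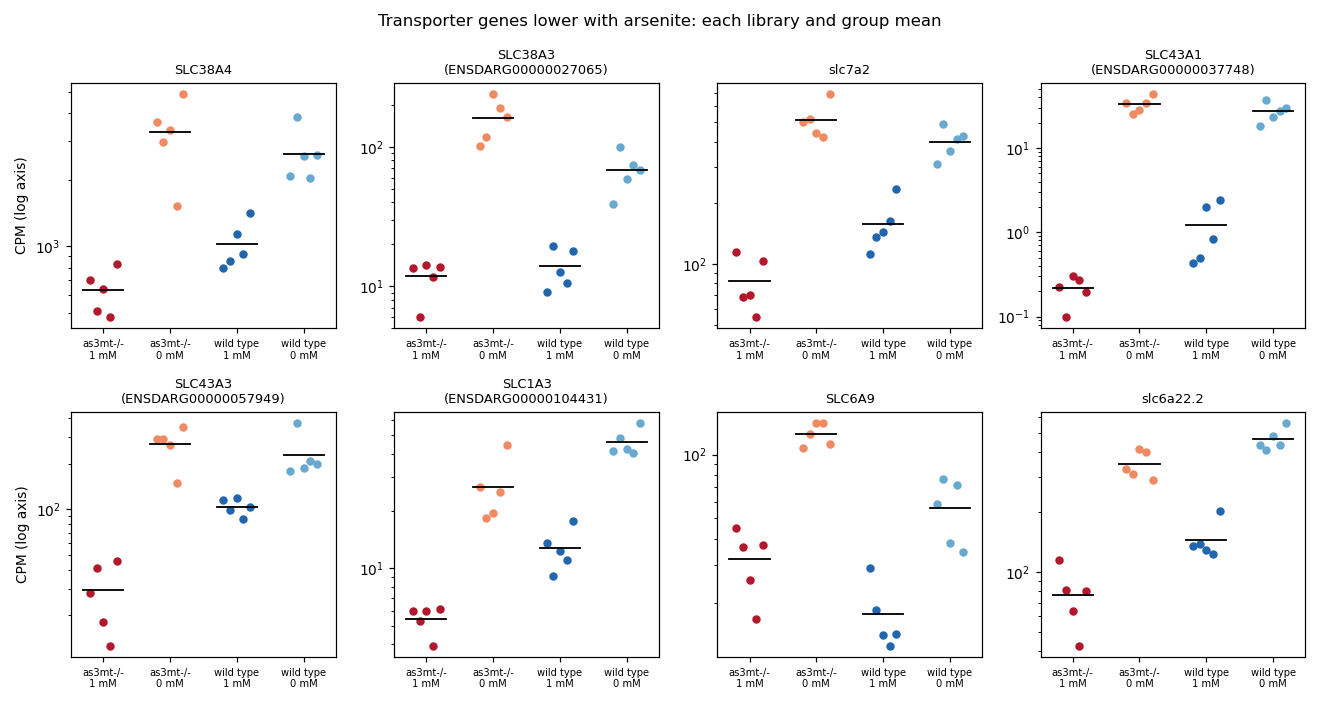
CPM (log axis) of 8 members that fell with arsenite, in every library (points) with the group mean (line), in the order exposed mutant, unexposed mutant, exposed wild type and unexposed wild type. SLC43A1 (ENSDARG00000037748) is at most 0.306 CPM in the exposed mutant libraries and at least 18 CPM in the unexposed libraries.

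The heavy subunits of the heteromeric exchangers also divided. SLC3A2, which carries the light subunits for large neutral and for cationic amino acids to the membrane, had 40.9, 29.6, 34.5, 33.9 and 41.2 CPM in exposed mutants, against 27.0, 4.83, 9.39, 3.51 and 21.3 CPM in unexposed mutants, a rise of 1.45 ± 0.49 (edgeR adjusted p = 0.0146) without overlap. The wild-type values were 102.3, 47.8, 96.6, 37.9 and 136.7 CPM with arsenite, against 38.2, 25.3, 57.1, 13.3 and 66.5 CPM without. These groups overlapped and the change of 1.07 ± 0.48 did not pass (edgeR adjusted p = 0.0683), but did without exposed wild-type replicate 2 or 4, unexposed mutant replicate 4 or unexposed wild-type replicate 5 (1.07 to 1.33, edgeR adjusted p 0.0384 to 0.0493). The paralogue slc3a2a fell by 1.30 ± 0.25 in mutants (edgeR adjusted p = 0.000136) and by 1.2 ± 0.25 in wild type (edgeR adjusted p = 0.000419), both without overlap, and neither passed under total-count scaling (-0.47 and -0.48, edgeR adjusted p 0.0982 and 0.0919). SLC3A1, the partner of SLC7A9 in taking up cystine and dibasic amino acids, fell by 0.76 ± 0.11 in mutants (edgeR adjusted p = 5.48e-06) and 0.63 ± 0.11 in wild type (edgeR adjusted p = 8.66e-05), and under total-count scaling it stood at 0.08 and 0.09. SLC7A9 itself fell by 0.49 ± 0.18 in mutants (edgeR adjusted p = 0.0214) and 0.45 ± 0.18 in wild type (edgeR adjusted p = 0.0394), with a positive sign under total-count scaling (0.34 and 0.28). Its call ended without unexposed mutant replicate 1 or exposed mutant replicate 2 (-0.43 to -0.36, edgeR adjusted p 0.0541 to 0.0644) and, in wild type, without unexposed replicates 3, 4 or 5 or exposed replicates 2, 4 or 5 (-0.46 to -0.34, edgeR adjusted p 0.0552 to 0.127).

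Of the other light subunits, the exchangers of large neutral amino acids and of cationic for neutral amino acids fell where they were called in both genotypes. SLC7A8, which pairs with SLC3A2, averaged 2.62 ± 0.144 CPM in exposed mutants and 5.69 ± 0.643 CPM in unexposed mutants (SD, n = 5 each), a fall of 1.12 ± 0.23 (edgeR adjusted p = 0.000281), and fell by 0.80 ± 0.23 in wild type (edgeR adjusted p = 0.00598). Under total-count scaling SLC7A8 stood at -0.28 and -0.09 (edgeR adjusted p 0.299 and 0.768). SLC7A6 fell by 0.71 ± 0.21 in mutants (edgeR adjusted p = 0.00594), where total-count scaling gave 0.13, and by 0.83 ± 0.21 in wild type (edgeR adjusted p = 0.00253), where it gave -0.12 (edgeR adjusted p = 0.63). SLC7A6OS, the gene opposite SLC7A6, had an unlike change of 0.34 ± 0.10 in mutants (edgeR adjusted p = 0.00727) and of 0.12 ± 0.10 in wild type (edgeR adjusted p = 0.356). Whether counting used the strand is not given in the sources used here, so reads of this pair may not be told apart. SLC7A7, at 0.275 to 3.29 CPM over all libraries, passed in neither genotype (-0.22 ± 0.64 and -1.0 ± 0.65, edgeR adjusted p 0.782 and 0.202). SLC7A5, the leucine exchanger of growing cells, was under 1 CPM in every library. It had 0.0573 to 0.231 CPM in exposed mutants, 0 to 0.368 CPM in unexposed mutants, 0.053 to 0.643 CPM in exposed wild type and 0 to 0.0403 CPM in unexposed wild type, and was called higher with arsenite in wild type (edgeR adjusted p = 0.00506). No fold is given for it, since the unexposed wild-type libraries held 1 count and the unexposed mutant libraries 13 counts in all. In mutants it did not pass (edgeR adjusted p = 0.517), but did without unexposed mutant replicate 5 (edgeR adjusted p = 0.00986). The exchanger of serine and other small neutral amino acids, SLC7A10 (ENSDARG00000008100), had 0.264 to 0.745 CPM in exposed mutants, 0.142 to 3.83 CPM in unexposed mutants, 1.25 to 3.95 CPM in exposed wild type and 0.211 to 1.78 CPM in unexposed wild type. Its rise of 1.67 ± 0.65 in wild type (edgeR adjusted p = 0.0367) was 2.35 without unexposed wild-type replicate 1 and ended without exposed replicates 1 or 2 or unexposed replicates 2 to 5 (1.36 to 1.65, edgeR adjusted p 0.0647 to 0.103). In mutants it was at -1.37 ± 0.64 (edgeR adjusted p = 0.0718), and passed without unexposed mutant replicate 1 (-1.64, edgeR adjusted p = 0.0265) or 3 (-1.60, edgeR adjusted p = 0.0395). That negative change leans on unexposed mutant replicate 5, at 3.83 CPM, since the other unexposed mutant libraries had 0.142 to 1.3 CPM.

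SLC43 held the deepest fall of all tested members. SLC43A1 (ENSDARG00000037748), a carrier that lets branched-chain and other large neutral amino acids out of cells, had 0.226, 0.0988, 0.306, 0.269 and 0.198 CPM in exposed mutants, against 34.3, 25.3, 28.2, 34.0 and 43.7 CPM in unexposed mutants, a fall of 7.22 ± 0.44 (edgeR adjusted p = 4.17e-11). For wild type the values were 0.428, 0.49, 1.99, 0.826 and 2.41 CPM with arsenite, against 18, 37.6, 23.3, 27.6 and 30.2 CPM without, a fall of 4.46 ± 0.38 (edgeR adjusted p = 9.26e-09). All exposed mutant libraries lay below all exposed wild-type libraries, and these below all unexposed ones. The second copy, SLC43A1 (ENSDARG00000037393), rose instead, by 0.38 ± 0.12 in mutants (edgeR adjusted p = 0.0119) and by 0.84 ± 0.13 in wild type (edgeR adjusted p = 1.37e-05). It averaged 36.3 ± 6.36 CPM in exposed mutants and 27.9 ± 3.28 CPM in unexposed mutants, and 33.4 ± 3.47 CPM in exposed wild type and 18.7 ± 2.34 CPM in unexposed wild type (SD, n = 5 each).

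SLC43A3 (ENSDARG00000057949), whose mammalian relative carries purine bases rather than amino acids, had 28.2, 41.3, 18.1, 12.6 and 45.8 CPM in exposed mutants, against 289.2, 292.1, 263.7, 148.4 and 348.0 CPM in unexposed mutants, a fall of 3.20 ± 0.31 (edgeR adjusted p = 2.56e-08). In wild type it had 114.9, 99.5, 117.8, 85.9 and 103.1 CPM with arsenite, against 179.9, 370.0, 185.8, 208.8 and 197.8 CPM without, a fall of 1.13 ± 0.29 (edgeR adjusted p = 0.00275). Groups did not overlap in either genotype, and the wild-type call was not kept under total-count scaling (-0.41, edgeR adjusted p = 0.207). SLC43A2 (ENSDARG00000036848), another exporter of large neutral amino acids, fell by 0.99 ± 0.25 in mutants (edgeR adjusted p = 0.00204) and by 0.84 ± 0.25 in wild type (edgeR adjusted p = 0.00865), and total-count scaling ended both calls (-0.15 and -0.13, edgeR adjusted p 0.605 and 0.658). Its other copy, SLC43A2 (ENSDARG00000061120), had 3.24, 2.14, 6.58, 2.03 and 2.38 CPM in exposed wild type, against 3.70, 8.42, 4.55, 109.6 and 12.2 CPM in unexposed wild type. Unexposed replicate 4 was far above the rest. The fall of 3.08 ± 0.74 (edgeR adjusted p = 0.00161) was 1.14 without unexposed wild-type replicate 4 (edgeR adjusted p = 0.0274). In mutants the change was -1.08 with and without that library. It did not pass over all libraries (edgeR adjusted p = 0.19) and passed without that library (edgeR adjusted p = 0.022). The library is not part of the mutant comparison and acts on it only through the fit shared by all groups.

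In SLC1, the glutamate and aspartate carrier SLC1A3 (ENSDARG00000104431) had 5.99, 5.26, 5.98, 3.91 and 6.10 CPM in exposed mutants, against 26.6, 18.3, 19.5, 25.1 and 44.5 CPM in unexposed mutants, a fall of 2.30 ± 0.22 (edgeR adjusted p = 1.96e-08). Wild-type pools had 13.6, 9.15, 12.4, 11.1 and 17.7 CPM with arsenite, against 41.2, 48.4, 42.3, 40.5 and 58.0 CPM without, a fall of 1.85 ± 0.22 (edgeR adjusted p = 6.02e-07). Neither pair of groups overlapped. The glutamine exchanger SLC1A5 was at 0.28 ± 0.26 in mutants (edgeR adjusted p = 0.358) and rose by 0.70 ± 0.26 in wild type (edgeR adjusted p = 0.027), a call that ended without exposed wild-type replicates 1 or 3 or unexposed replicates 1, 3 or 5 (0.57 to 0.66, edgeR adjusted p 0.0544 to 0.0835). The serine and alanine exchanger SLC1A4 had 4.41, 3.46, 5.92, 6.08 and 8.89 CPM in exposed mutants, against 0.0945, 0.144, 0.0414, 0.144 and 48.0 CPM in unexposed mutants. A single unexposed library was above all exposed ones, and the other 4 were below them. Over all libraries its change was -0.77 ± 1.23 (edgeR adjusted p = 0.605), and without unexposed mutant replicate 5 it was 5.66 (edgeR adjusted p = 0.000403). In wild type SLC1A4 had 22.9, 5.14, 8.19, 7.84 and 3.90 CPM with arsenite, against 0.0913, 0.144, 0.19, 8.63 and 1.86 CPM without (2.12 ± 1.32, edgeR adjusted p = 0.185), and the change passed without unexposed wild-type replicate 4 (3.97, edgeR adjusted p = 0.0374) or unexposed mutant replicate 5 (2.12, edgeR adjusted p = 0.027).

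SLC6A19 (ENSDARG00000091560) had the largest rise of all tested members. Its mammalian counterpart takes up neutral amino acids at the brush border of gut and kidney. It had 9.0, 10.0, 11.3, 7.43 and 14.4 CPM in exposed mutants, against 0, 0.144, 0.0414, 0.0287 and 0.0613 CPM in unexposed mutants, where the 5 libraries held 8 counts in all. Among wild-type pools it had 5.69, 0.887, 1.87, 0.0786 and 0.185 CPM with arsenite, against 0.0456, 1.11, 0, 0.282 and 0.176 CPM without. The mutant groups did not overlap, while those of wild type did. A nearly silent gene passes the filter only where a group is higher, here the exposed mutants. Its place among the tested members thus follows from that level. The rise was 7.44 ± 1.08 in mutants (edgeR adjusted p = 5.31e-06), and 8.08 without unexposed mutant replicate 2, both resting on those few counts. In wild type it was 2.48 ± 0.88 (edgeR adjusted p = 0.0229), with 3.71 without unexposed wild-type replicate 2, 1.28 without exposed wild-type replicate 1 (edgeR adjusted p = 0.192), and no call without unexposed wild-type replicates 1, 3 or 5 either (1.28 to 2.32 over these 4, edgeR adjusted p 0.0529 to 0.192). The difference of the responses, 4.96 ± 1.51, did not pass (edgeR adjusted p = 0.0681), and passed without exposed wild-type replicate 1 (6.16, edgeR adjusted p = 0.00988). cltrn, its partner in mammalian kidney, passed in neither genotype, at 1.23 ± 0.83 and 1.07 ± 0.86 (edgeR adjusted p 0.207 and 0.307). The copies SLC6A19 (ENSDARG00000018621) and SLC6A19 (ENSDARG00000056719) did not pass the filter. Their means were 0.334 and 0.601 CPM in exposed mutants and 0.0818 and 0.0494 CPM in unexposed mutants. Exposed mutant replicate 3 had 1.53 and 2.94 CPM, the other exposed mutant libraries at most 0.066 and 0.0615 CPM. Wild type averaged 0.331 and 0.607 CPM with arsenite and 0.252 and 0.673 CPM without.

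Most listed markers of intestinal epithelium did not rise with SLC6A19 (ENSDARG00000091560). Of 12 tested, 1 rose and 7 fell in mutants and 1 rose and 6 fell in wild type, with summed levels of 964 to 1652 CPM in exposed mutants, 5344 to 7691 CPM in unexposed mutants, 1450 to 2523 CPM in exposed wild type and 5923 to 8163 CPM in unexposed wild type. The marker that rose was the brush border peptidase ANPEP (ENSDARG00000103878), at 116.1 to 343.7 CPM in exposed mutants and 9.56 to 14.4 CPM in unexposed mutants, and 24.5 to 172.7 CPM in exposed wild type and 6.98 to 10.3 CPM in unexposed wild type. FABP2 had 23.7 to 61.7 CPM in exposed mutants and 210.3 to 314.9 CPM in unexposed mutants, VIL1 was at most 0.541 CPM in any mutant library, and SLC15A1 (ENSDARG00000100315), the gut peptide carrier, was at most 0.414 CPM there. Summed levels of the list fell with arsenite, as did those of the hepatocyte markers, so its counts cannot tell gut cells from liver cells. The single markers were chosen after their values were seen. The part of gut cells in the rise of SLC6A19 (ENSDARG00000091560) was not tested.

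The other SLC6 genes mostly fell. slc6a22.2 had 115.8, 81.8, 64.1, 42.6 and 80.1 CPM in exposed mutants, against 328.1, 311.7, 416.8, 399.3 and 292.0 CPM in unexposed mutants, a fall of 2.19 ± 0.20 (edgeR adjusted p = 1.28e-08). In wild type it had 135.0, 137.9, 128.9, 123.2 and 202.0 CPM with arsenite, against 434.1, 410.0, 480.7, 436.0 and 562.2 CPM without, a fall of 1.68 ± 0.20 (edgeR adjusted p = 7.99e-07). Neither pair overlapped. Its next neighbour on the later assembly, slc6a22.1, fell less far, by 1.03 ± 0.22 in mutants (edgeR adjusted p = 0.000491) and by 0.63 ± 0.22 in wild type (edgeR adjusted p = 0.0224). The wild-type call of slc6a22.1 ended without exposed wild-type replicates 2, 3 or 4 or unexposed replicate 3 (-0.58 to -0.49, edgeR adjusted p 0.0533 to 0.0797) and its sign turned under total-count scaling (0.08), where the mutant call ended too (-0.21, edgeR adjusted p = 0.352). SLC6A9, the glycine carrier, had 45.0, 36.8, 25.5, 16.8 and 37.3 CPM in exposed mutants, against 107.3, 125.3, 141.0, 141.2 and 112.2 CPM in unexposed mutants, a fall of 1.96 ± 0.27 (edgeR adjusted p = 3.18e-06). Among wild-type libraries it had 29.3, 18.5, 14.1, 12.5 and 14.3 CPM with arsenite, against 58.8, 76.9, 38.2, 72.0 and 34.6 CPM without, a fall of 1.66 ± 0.27 (edgeR adjusted p = 3.62e-05). The groups were apart in both genotypes.

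Carriers of transmitters and taurine mostly fell as well. SLC6A4, the serotonin carrier, averaged 1.38 ± 0.229 CPM in exposed mutants and 12.0 ± 3.60 CPM in unexposed mutants (SD, n = 5 each), a fall of 3.12 ± 0.22 (edgeR adjusted p = 2.6e-10). In wild type it averaged 2.42 ± 0.709 CPM with arsenite and 11 ± 1.79 CPM without (SD, n = 5 each), a fall of 2.19 ± 0.21 (edgeR adjusted p = 5.85e-08). SLC6A13, the carrier of GABA and taurine known from mammalian liver, fell by 1.92 ± 0.26 in mutants (edgeR adjusted p = 2.42e-06) and by 1.2 ± 0.26 in wild type (edgeR adjusted p = 0.000611), the second not passing under total-count scaling (-0.50, edgeR adjusted p = 0.0948). The taurine carrier SLC6A6 (ENSDARG00000098438), at 0.403 to 2.44 CPM, fell by 1.15 ± 0.32 in mutants (edgeR adjusted p = 0.00411; -0.31 and 0.424 under total-count scaling) and was at -0.02 ± 0.33 in wild type (edgeR adjusted p = 0.97), a difference of responses that did not pass (edgeR adjusted p = 0.189). The orphan slc6a16a had 1.58, 1.2, 2.1, 2.2 and 1.47 CPM in exposed mutants, against 7.37, 10.4, 10.3, 12.2 and 11.9 CPM in unexposed mutants, a fall of 2.61 ± 0.25 (edgeR adjusted p = 2.44e-08), and it fell by 3.10 ± 0.27 in wild type (edgeR adjusted p = 1.24e-08). It was one of 2 members lower in both genotypes whose fall was smaller in mutants. Its paralogue slc6a16b rose in wild type, to 15.1, 11.7, 12.1, 9.34 and 12.5 CPM with arsenite, against 6.43, 7.84, 6.14, 7.02 and 5.59 CPM without (0.88 ± 0.16, edgeR adjusted p = 0.000136), and was at 0.28 ± 0.16 in mutants (edgeR adjusted p = 0.149). The noradrenaline carrier SLC6A2 was called lower in both genotypes, but its exposed libraries held 5 counts in mutants and 4 in wild type in all, and no library exceeded 0.567 CPM.

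Of the SLC36 carriers, SLC36A1 rose in both genotypes and slc36a4 in wild type. SLC36A1, found on lysosomes and at the gut surface, had 29.6, 21.1, 27.8, 19.5 and 27.1 CPM in exposed mutants, against 6.48, 6.24, 6.37, 5.78 and 6.95 CPM in unexposed mutants, a rise of 1.98 ± 0.15 (edgeR adjusted p = 9.78e-10). Wild type showed 26.0, 15.7, 25.7, 21.9 and 19.0 CPM with arsenite, against 5.48, 5.39, 6.90, 6.25 and 8.01 CPM without, a rise of 1.76 ± 0.15 (edgeR adjusted p = 1.44e-08). Exposed and unexposed libraries were far apart, and the genotypes overlapped. slc36a4 was at 0.65 ± 0.38 in mutants (edgeR adjusted p = 0.147) and rose by 1.59 ± 0.39 in wild type (edgeR adjusted p = 0.002), between 0.183 and 2.50 CPM over all libraries.

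**Figure D3:**
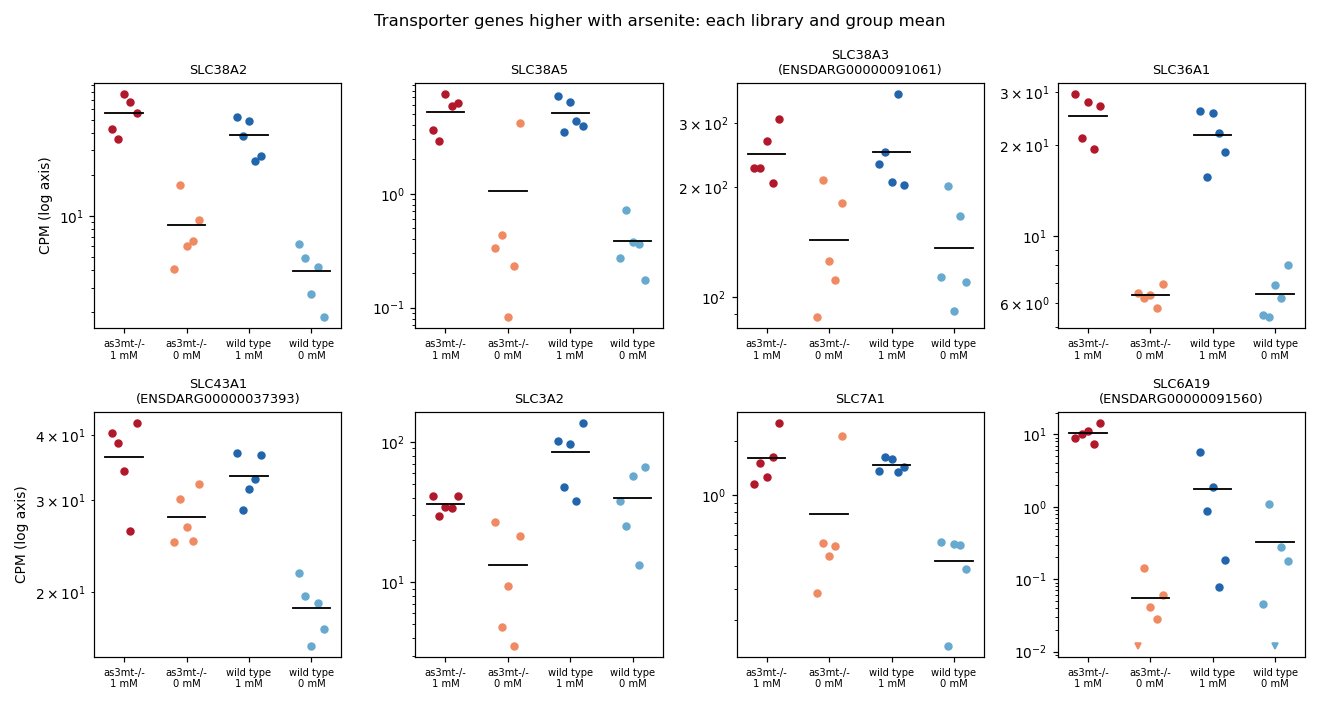
CPM (log axis) of 8 members that rose with arsenite in at least 1 genotype, in every library (points) with the group mean (line), in the order exposed mutant, unexposed mutant, exposed wild type and unexposed wild type. Triangles at the bottom of the SLC6A19 (ENSDARG00000091560) panel are libraries at 0. The SLC36A1 groups are separated in both genotypes, and the fifth unexposed mutant library lies high for SLC38A5 and SLC7A1.

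Without arsenite the genotypes differed in members about as often as in all tested genes. Compared with unexposed wild type, 5 of 49 members were higher and 2 lower in unexposed mutants, which is 14.3% called. Of all tested genes 13.8% were called, 5.91% higher and 7.91% lower. The groups did not overlap for 3 members, beside 10.6% of all genes. Libraries scaled by total count gave 8 higher and 2 lower. SLC38A3 (ENSDARG00000027065), whose values are given above, was higher in mutants by 1.26 ± 0.28 (edgeR adjusted p = 0.00507) and the glycine carrier SLC6A9 by 1.16 ± 0.27 (edgeR adjusted p = 0.00631), both without overlap. SLC43A1 (ENSDARG00000037393), at 25, 30.2, 26.7, 25.1 and 32.3 CPM in unexposed mutants, against 21.8, 19.7, 15.8, 19.1 and 17.0 CPM in unexposed wild type, was higher by 0.58 ± 0.13 (edgeR adjusted p = 0.00438). Those 3 differences were called under every alternative tried. SLC38A2 was higher in mutants by 1.12 ± 0.36 (edgeR adjusted p = 0.0434), a call that ended without unexposed mutant replicates 2 or 5, exposed mutant replicate 5 or unexposed wild-type replicates 3, 4 or 5 (0.73 to 1.15, edgeR adjusted p 0.0515 to 0.163). SLC6A6 (ENSDARG00000098438) was higher by 1.00 ± 0.33 (edgeR adjusted p = 0.049) and was lost without any 1 of 15 libraries. Lower in mutants were SLC1A3 (ENSDARG00000104431), by 0.78 ± 0.21 (edgeR adjusted p = 0.0166) and just short of it without unexposed wild-type replicate 5 (-0.68, edgeR adjusted p = 0.051), and SLC3A2, by 1.61 ± 0.49 (edgeR adjusted p = 0.0342). SLC3A2 did not pass without unexposed mutant replicates 2, 3 or 4 or unexposed wild-type replicates 1, 3 or 5 (-1.63 to -1.35, edgeR adjusted p 0.0573 to 0.0968). Exocrine pancreas markers, 12 tested, had 1 higher and 0 lower in unexposed mutants with a median difference of 2.94, and summed to 86.3 to 1354.1 CPM there, against 25.6 to 187.5 CPM in unexposed wild type. With their level as a covariate, SLC38A2 was at 1.12 (edgeR adjusted p = 0.128) and SLC6A6 (ENSDARG00000098438) at 0.70 (edgeR adjusted p = 0.272).

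With arsenite, more members were lower in mutants than in wild type. Against exposed wild type, 2 were higher and 11 lower in exposed mutants, while 20.6% of all tested genes were called, 7.68% higher and 12.9% lower, and 9 members did not overlap, beside 15.4% of all genes. Scaled by total count, 9 were higher and 7 lower. SLC43A1 (ENSDARG00000037748) was lower by 2.48 ± 0.43 (edgeR adjusted p = 0.000313). SLC43A3 (ENSDARG00000057949) was lower by 1.84 ± 0.30 (edgeR adjusted p = 0.000151), and SLC1A3 (ENSDARG00000104431) by 1.23 ± 0.22 (edgeR adjusted p = 0.000326). These 3 genes, described above with their values, did not overlap between exposed mutant and exposed wild-type libraries. slc7a2 was lower by 0.94 ± 0.21 (edgeR adjusted p = 0.00276) with overlap. Without overlap, slc6a22.2 was lower by 0.92 ± 0.20 (edgeR adjusted p = 0.00206) and slc6a16b by 0.86 ± 0.16 (edgeR adjusted p = 0.000598). The serotonin carrier SLC6A4 was lower by 0.80 ± 0.21 (edgeR adjusted p = 0.0108). SLC7A10 (ENSDARG00000008100), lower by 2.18 ± 0.64 (edgeR adjusted p = 0.0196), did not pass without exposed wild-type replicate 1 (-1.87, edgeR adjusted p = 0.0545), nor did slc7a1a, lower by 0.76 ± 0.22 (edgeR adjusted p = 0.0188), without exposed wild-type replicate 2 or exposed mutant replicate 3 (-0.70 to -0.59, edgeR adjusted p 0.0535 to 0.0705). SLC38A4, lower by 0.70 ± 0.25 (edgeR adjusted p = 0.0485), and the broad neutral and cationic carrier slc6a14, lower by 0.99 ± 0.34 (edgeR adjusted p = 0.0444), were lost without any 1 of 14 and of 10 libraries. Under total-count scaling slc7a1a (-0.48), SLC38A4 (-0.42), slc6a14 (-0.71) and SLC6A4 (-0.52) did not pass (edgeR adjusted p 0.0898 to 0.156). Higher in exposed mutants were SLC6A19 (ENSDARG00000091560), by 2.60 ± 0.73 (edgeR adjusted p = 0.0147; 3.80 without exposed wild-type replicate 1), and SLC6A9, by 0.86 ± 0.27 (edgeR adjusted p = 0.026). The SLC6A9 call ended without exposed mutant replicates 1, 2 or 5 or exposed wild-type replicates 3, 4 or 5 (0.71 to 0.81, edgeR adjusted p 0.0537 to 0.0759). Among members short of a call, slc6a16a was higher without overlap (0.73 ± 0.26, edgeR adjusted p = 0.0509) and SLC3A2 lower with overlap (-1.23 ± 0.48, edgeR adjusted p = 0.0787). Leaving out single libraries gave calls for slc6a16a (0.73 to 0.84, edgeR adjusted p 0.0298 to 0.0466) and, without exposed wild-type replicate 4, for SLC3A2 (-1.41, edgeR adjusted p = 0.0494). Hepatocyte markers were mostly lower as well, with 17 of 22 lower in exposed mutants at a median of -0.95, and their part in the lower carriers was not tested. Of the 12 exocrine pancreas markers 4 were higher and 0 lower in exposed mutants, with a median of 2.95 and sums of 7.18 to 609.5 CPM, against 4.93 to 41.6 CPM in exposed wild type. With their level as a covariate SLC7A10 (ENSDARG00000008100) stood at -1.98, SLC38A4 at -0.75 and slc6a14 at -1.04, and none of these passed (edgeR adjusted p 0.0578 to 0.075).

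The arsenite response itself differed between genotypes for 4 members, all with the more negative change in mutants. Of all tested genes 3.98% were called for this difference, 1.31% higher and 2.67% lower, against 0 higher and 4 lower of the 49 members. The members' median difference was -0.43, and that of all genes -0.05. Of the 15 members with an unadjusted edgeR p under 0.05, 1 was higher, SLC6A19 (ENSDARG00000091560), and DESeq2 called 1 member higher after adjustment. SLC43A1 (ENSDARG00000037748) had a difference of -2.76 ± 0.54 (edgeR adjusted p = 0.00616). SLC43A3 (ENSDARG00000057949) had one of -2.07 ± 0.41 (edgeR adjusted p = 0.00718). The cationic carrier slc7a2 had one of -1.30 ± 0.29 (edgeR adjusted p = 0.0168). Unexposed libraries of the genotypes overlapped for each of these 3 genes, and exposed mutants were lower. SLC38A3 (ENSDARG00000027065) reached its difference of -1.5 ± 0.40 (edgeR adjusted p = 0.0371) differently, since unexposed mutants were higher than unexposed wild type while the exposed groups overlapped. That call ended without exposed mutant replicates 2, 3 or 4, unexposed mutant replicates 3, 4 or 5, exposed wild-type replicates 2, 3 or 5, or unexposed wild-type replicates 1, 3 or 5 (-1.57 to -1.31, edgeR adjusted p 0.0514 to 0.0769). The carriers SLC38A4 (-1.02 ± 0.35, edgeR adjusted p = 0.105) and slc7a1a (-0.89 ± 0.30, edgeR adjusted p = 0.105) did not pass, though both did without unexposed wild-type replicate 2 (-1.2 and -1.08, edgeR adjusted p 0.0459 and 0.0299), and SLC38A4 also without unexposed mutant replicate 4 (-1.2, edgeR adjusted p = 0.0285). SLC7A10 (ENSDARG00000008100) was at -3.04 ± 0.92 (edgeR adjusted p = 0.0663) and passed without unexposed wild-type replicate 1 (-3.72, edgeR adjusted p = 0.0331) or unexposed mutant replicate 1 (-3.31, edgeR adjusted p = 0.0395). Its difference leans in part on unexposed mutant replicate 5, at 3.83 CPM, with the other unexposed mutant libraries at 0.142 to 1.3 CPM. SLC6A4 (-0.93 ± 0.29, edgeR adjusted p = 0.0765) passed without exposed wild-type replicate 4 (-1.07, edgeR adjusted p = 0.0316). Hepatocyte markers had 9 of 22 called lower for the same difference, with a median of -0.77, and their part in these differences was not tested.

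**Figure D4:**
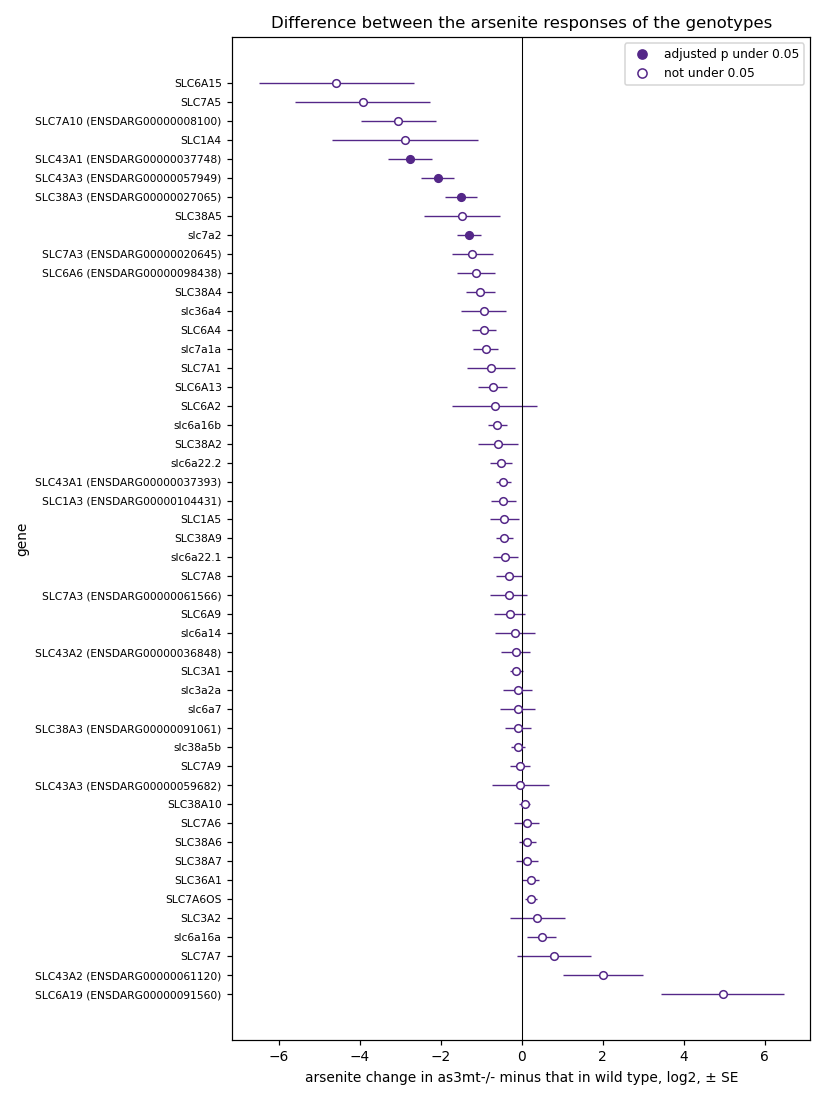
Arsenite change in as3mt-/- minus that in wild type (x axis, log2, bars of 1 standard error) for the 49 tested members, ordered by value, with filled symbols where the adjusted p was under 0.05. The 4 filled symbols lie between -2.76 and -1.30, and members with larger differences to either side have wide bars.

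Genes that work around these carriers were counted from 4 further lists, beside the 31.5% higher and 30.3% lower of all tested genes in mutants and the 28.7% and 24.6% in wild type. Other amino acid and peptide transporters, 13 tested, had 5 higher and 5 lower in mutants and 4 higher and 5 lower in wild type, with medians of -0.14 and 0.46. SLC16A12 (ENSDARG00000017773), a creatine carrier, had 3.64 to 17.4 CPM in exposed mutants and 298.6 to 326.2 CPM in unexposed mutants (-5.03 ± 0.35, edgeR adjusted p = 2.61e-10), and 64.6 to 146.6 CPM in exposed wild type and 240.4 to 403.7 CPM in unexposed wild type. Its response differed by -3.34 ± 0.43 (edgeR adjusted p = 0.000248), the only one of the 13 called for that difference. The lysosomal carriers MFSD12, of cysteine, and slc17a5, of sialic and other acids, went opposite ways, up by 1.58 ± 0.13 and down by 1.78 ± 0.17 in mutants (edgeR adjusted p 3.28e-09 and 2.06e-08). Genes of the amino acid response, the program set off by the kinase GCN2 and the factor ATF4 when amino acids run short, had 12 higher and 9 lower of 28 in mutants and 12 higher and 8 lower in wild type (medians 0.26 and 0.15). Among them the serine synthesis enzyme PSAT1 had 65.2 to 100.5 CPM in exposed mutants and 1.21 to 27.8 CPM in unexposed mutants, and 66.3 to 97.9 CPM in exposed wild type and 0.808 to 3.24 CPM in unexposed wild type. The smallest adjusted p of the list in mutants were those of nupr1a (2.01 ± 0.17), eif2ak1 (1.04 ± 0.13) and atf5a (3.51 ± 0.44). The list also holds kinase genes other than that of GCN2, among them eif2ak1, so its counts do not stand for targets of this program alone. For the difference of the responses 1 of the 28 was called, nupr1a, with the more positive change in mutants (1.84 ± 0.23, edgeR adjusted p = 0.000162). Not all targets went up, since the glutathione-degrading CHAC1, named after its values were seen, fell by 3.09 ± 0.61 in mutants (edgeR adjusted p = 0.000181) and by 1.76 ± 0.58 in wild type (edgeR adjusted p = 0.0147).

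Components of mTORC1 amino acid sensing had 16 higher and 5 lower of 33 in mutants and 17 higher and 5 lower in wild type, with medians of 0.47 and 0.33, where 31.5% of all tested genes were higher and 30.3% lower in mutants and 28.7% and 24.6% in wild type. The lysosomal scaffold LAMTOR2 rose by 0.87 ± 0.10 in mutants (edgeR adjusted p = 4.32e-07) and by 0.78 ± 0.10 in wild type (edgeR adjusted p = 3.37e-06), and the folliculin partner FNIP2 fell by 2.31 ± 0.19 (edgeR adjusted p = 2.57e-09) and 1.52 ± 0.19 (edgeR adjusted p = 1.32e-06). Of enzymes that turn over glutamate, glutamine and aspartate, 5 rose and 11 fell of 20 in mutants and 6 rose and 6 fell in wild type, with medians of -0.60 and 0.11. Glutamine synthetase GLUL (ENSDARG00000099776) had 1.83 to 5.37 CPM in exposed mutants and 35.7 to 108.7 CPM in unexposed mutants, and 4.11 to 10.2 CPM in exposed wild type and 22.9 to 37.5 CPM in unexposed wild type. Its response differed by -2.26 ± 0.49 (edgeR adjusted p = 0.0128). Of the 20 enzymes, 1 was called higher and 4 lower for that difference. The alanine aminotransferase GPT (ENSDARG00000019541) fell by 1.91 ± 0.14 in mutants (edgeR adjusted p = 3.15e-10) and by 1.16 ± 0.13 in wild type (edgeR adjusted p = 5.24e-07).

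Unexposed mutant replicate 5 stood apart for a group of these genes at once. It had 48.0 CPM of SLC1A4, 4.17 CPM of SLC38A5 and 3.58 CPM of the neutral amino acid carrier SLC6A15, while the other 4 unexposed mutant libraries had at most 0.144, 0.433 and 0.0414 CPM of them. The serine synthesis genes PSAT1 and PHGDH were at 27.8 and 27.3 CPM in that library and at 1.21 to 2.2 CPM and 0.372 to 4.47 CPM in the other 4. Its levels of PSAT1 and PHGDH were nonetheless below those of every exposed library. The summed level of the amino acid response list, which holds PSAT1 and PHGDH, did not set it apart. That list summed to 2504.9 CPM in unexposed mutant replicate 1, 1299.4 to 1421.5 CPM in replicates 2, 3 and 4 and 2245.2 CPM in replicate 5. PSAT1 and PHGDH make up little of that sum, so it cannot show whether scarcer genes of the list were raised in replicate 5. Hepatocyte markers summed to 171894 CPM in replicate 5, within the range of the other unexposed mutant libraries. Between the unexposed groups SLC1A4 was at 2.15 ± 1.32 (edgeR adjusted p = 0.302), and without that library at -4.28 (edgeR adjusted p = 0.025). The second value rests on unexposed wild-type replicates 4 and 5, at 8.63 and 1.86 CPM, since the other 3 wild-type libraries had 0.0913 to 0.19 CPM, near the 0.0414 to 0.144 CPM of the 4 mutant libraries left. SLC6A15 passed as higher with arsenite in both genotypes without that library (edgeR adjusted p = 0.0293 in each) and did not over all libraries (edgeR adjusted p 0.139 and 0.168), with 5 counts in all in the unexposed wild-type libraries.

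**Figure D5:**
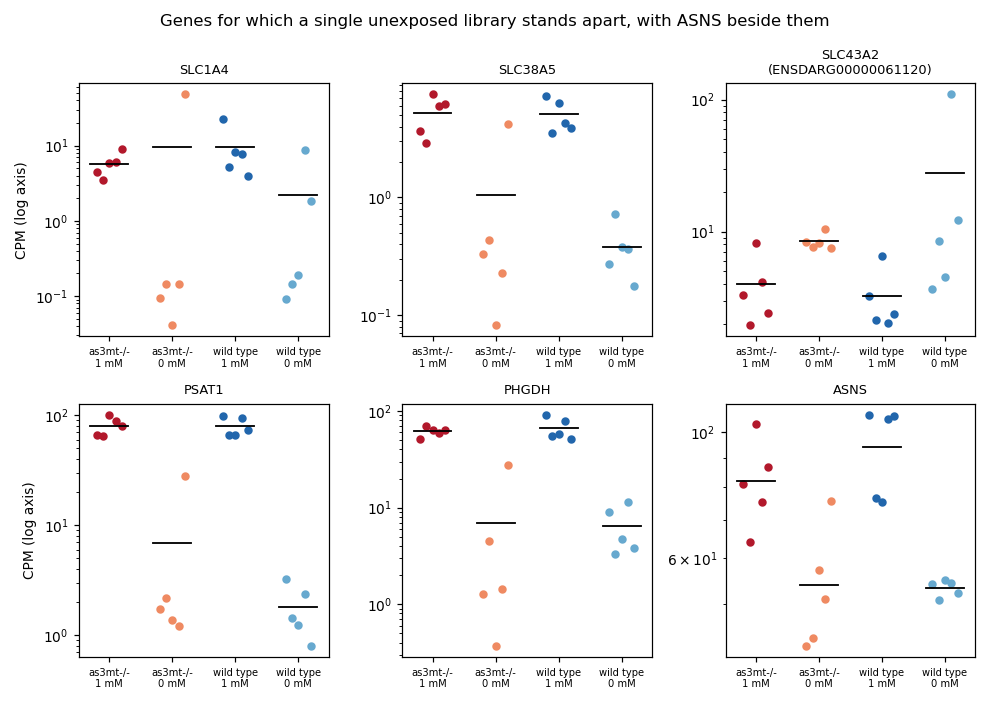
CPM (log axis) in every library (points) with the group mean (line), in the order exposed mutant, unexposed mutant, exposed wild type and unexposed wild type, for SLC1A4, SLC38A5, SLC43A2 (ENSDARG00000061120), PSAT1, PHGDH and ASNS. One unexposed mutant library is high for SLC1A4, SLC38A5, PSAT1 and PHGDH, and a different, wild-type library is high for SLC43A2.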

How the data were processed

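Libraries of polyadenylated RNA from pooled larval livers were sequenced, and the deposited values are raw read counts per Ensembl gene, per the labels. Trimmomatic 0.36, FastQC 0.11.5 and the zebrafish genome build GRCz10 are named in the submitters' processing notes. The aligner, the counting tool, the annotation and the use of strand are not given in the sources used here, and genes with near-identical copies may share reads. Symbols were matched to 26269 of 32105 identifiers (81.8%). Gene neighbours were taken from GRCz12tu, an assembly newer than that of the counts.

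Genes were filtered with filterByExpr, scaled by TMM and fitted with the edgeR 4.0.16 quasi-likelihood test in R 4.3.3, with the 4 group means in one fit of 20 libraries. The 5 comparisons were arsenite in mutants, arsenite in wild type, genotype among unexposed libraries, genotype among exposed libraries and mutant minus wild-type arsenite response. P-values were adjusted by the Benjamini-Hochberg method over 16389 genes. Each standard error is the log2 change divided by the square root of its F value. The common biological coefficient of variation was 0.282. The fit was run on simulated counts with known changes in a small share of genes of the exposed mutants. That run does not cover shifts as wide as those with arsenite here. Chi-square per degree of freedom between replicate libraries was 33.85 to 154.32, and no pair was identical. Depth was 25406597 to 42047561 counts, and genes with few counts are the least precise.

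Alternatives were DESeq2 1.42.0 size factors and its Wald test, total-count scaling, other filters, a fit of only the groups compared, a replicate block, a covariate of exocrine pancreas markers, leaving out each library and, chosen after seeing the data, leaving out 3 libraries together. Those 3 were unexposed wild-type replicate 2, exposed wild-type replicate 5 and unexposed mutant replicate 5. Unexposed wild-type replicate 4 stayed in that fit. The members, gene lists and tests were chosen with earlier results of these data known. Named members were those called with the 8 largest changes in each direction per comparison at a mean of at least 1 CPM, those called for the difference of the responses, the 3 highest of each family, and the SLC3 heavy subunits with the light subunits SLC7A5 to SLC7A10. From each other list, genes were named from among up to 3 called genes with the smallest adjusted p per comparison, and not all of these are given. SLC38A6, SLC38A9, slc38a5b, SLC6A2, SLC6A13, SLC6A15, the second SLC7A3 copy, cltrn, CHAC1 and the single gut markers were named after their values were seen. PHGDH and the plotted ASNS also lie outside the naming rules.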

Additional observations from a re-analysis of the deposited data

Results flagged for a closer look

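Among 39 named members, 137 groups of 5 libraries with a mean of at least 1 CPM were examined for a library far from the other 4, and 20 held one. The cut used gives about 1 in 20 groups by chance only for independent, normally distributed values. CPM need not be so distributed and these groups share libraries, so the count was not tested against that rate.

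Unexposed mutant replicate 5 stood at 48.0 CPM for SLC1A4, where the others were at 0.0414 to 0.144 CPM, and at 4.17 CPM for SLC38A5, where the others were at 0.0827 to 0.433 CPM. Unexposed wild-type replicate 4 stood at 109.6 CPM for SLC43A2 (ENSDARG00000061120), with the others at 3.70 to 12.2 CPM, at 8.63 CPM for SLC1A4, with the others at 0.0913 to 1.86 CPM, and at 16.3 CPM for slc3a2a, with the others at 8.49 to 9.52 CPM. Unexposed wild-type replicate 2 was high for a further 4 genes. It had 370.0 CPM of SLC43A3 (ENSDARG00000057949) against 179.9 to 208.8 CPM, 309.3 CPM of SLC7A3 (ENSDARG00000020645) against 101.8 to 156.9 CPM, 25.9 CPM of SLC1A5 against 9.94 to 14.5 CPM, and 9.38 CPM of slc7a1a against 5.23 to 6.01 CPM in the others.

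Replicate 3 was high for slc6a22.1 in both unexposed groups, with 97.4 CPM in mutants beside 62.4 to 70.2 CPM, and 89.4 CPM in wild type beside 56.0 to 61.8 CPM. The remaining single libraries were exposed mutant replicate 4 for SLC3A1 (7.06 CPM beside 5.46 to 5.77 CPM), exposed mutant replicate 3 for SLC7A7 (3.04 CPM beside 0.451 to 0.554 CPM) and unexposed mutant replicate 2 for SLC7A7 (2.78 CPM beside 0.488 to 1.04 CPM). Unexposed mutant replicate 3 had 18.3 CPM of SLC6A4 beside 9.74 to 12.0 CPM, and unexposed mutant replicate 4 had 10.5 CPM of SLC43A2 (ENSDARG00000061120) beside 7.54 to 8.27 CPM. In exposed wild type, replicate 1 had 22.9 CPM of SLC1A4 beside 3.90 to 8.19 CPM and 0.643 CPM of slc6a16a beside 1.06 to 1.16 CPM, replicate 3 had 6.58 CPM of SLC43A2 (ENSDARG00000061120) beside 2.03 to 3.24 CPM, and replicate 5 had 202.0 CPM of slc6a22.2 beside 123.2 to 137.9 CPM. No cause of these values was tested.

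The arsenite responses of mutants and wild type differed, by the test of the difference itself, for SLC43A1 (ENSDARG00000037748) at -2.76, SLC43A3 (ENSDARG00000057949) at -2.07, SLC38A3 (ENSDARG00000027065) at -1.50 and slc7a2 at -1.30 on the log2 scale.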

How the results depend on the processing

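Of 96 called changes of members over the 5 comparisons, 59 were kept under every alternative tried and 77 under every single left-out library. Total-count scaling moved the most, with 17 calls lost and 7 signs turned. It gave 18 members higher and 14 lower with arsenite in mutants, 12 lower in wild type, 8 higher without arsenite in mutants against wild type, and 9 higher and 7 lower with arsenite. The 7 turned signs were those of SLC7A9 (0.34), SLC3A1 (0.08) and SLC7A6 (0.13) in mutants and of SLC7A9 (0.28), SLC3A1 (0.09), slc6a22.1 (0.08) and SLC38A10 (0.45) in wild type. Scaling by total count also raised the share of all arsenite calls that were higher, in mutants to 83.4% against 51.0% and in wild type to 88.1% against 53.8%. For genotype without arsenite, a fit of the groups compared alone gave 3 higher and 1 lower, and the pancreas covariate 3 higher. For genotype with arsenite, leaving out 3 libraries gave 1 higher, and DESeq2 gave 4 higher and, for the difference of the responses, 1 higher. Leaving out single libraries gave 3 to 5 higher and 0 to 3 lower without arsenite, 1 to 3 higher with arsenite, and 0 to 1 higher and 3 to 6 lower for the difference. The cause was not tested.

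Replicate numbers were not taken as pairs in the main fit. The rule was a chosen cut of 0.1 on the 10 correlations between same-numbered exposed and unexposed libraries of a genotype. Of these, 3 were under the cut (lowest 0.0466 in mutants and 0.0155 in wild type), and all were positive. Same-numbered libraries were still more alike, with medians of 0.156 in mutants and 0.165 in wild type, against -0.0356 and -0.0387 for unlike numbers. Of 20 libraries, 18 correlated best with their own number among libraries of the same genotype and the other exposure. Libraries of the other genotype were left out of that count. The main p-values leave out any factor that same-numbered libraries share. With a replicate block over all libraries, 3 members were higher in mutants without arsenite and 1 was higher for the difference, and with a replicate block within genotype 1 was higher for the difference. Under the block over all libraries 3 calls did not pass, SLC6A19 (ENSDARG00000091560) in wild type (2.07, edgeR adjusted p = 0.0701) and, without arsenite between genotypes, SLC38A2 (1.12, edgeR adjusted p = 0.0572) and SLC6A6 (ENSDARG00000098438; 0.96, edgeR adjusted p = 0.0574). Under the block within genotype SLC6A19 (1.88, edgeR adjusted p = 0.0975) and SLC7A9 (-0.45, edgeR adjusted p = 0.0627) did not pass in wild type.

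Depth limits the genes with few counts. SLC6A15 in unexposed wild type, SLC6A19 (ENSDARG00000091560) in unexposed mutants, SLC6A2 in both exposed groups and SLC7A5 in both unexposed groups had under 30 counts in 5 libraries.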

Other observations

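Markers of other cells that a liver pool could hold were counted as a description, higher and lower with arsenite, first in mutants and then in wild type. Endothelial markers had 1 higher and 9 lower of 10, then 1 and 8. Macrophage and neutrophil markers had 1 higher and 2 lower of 13, then 0 and 6. Stellate cell and fibroblast markers had 0 higher and 5 lower of 10, then 1 and 2. Biliary markers had 1 higher and 2 lower of 8, then 1 and 3. Kidney tubule markers had 0 higher and 1 lower of 6 in both. Muscle markers had 2 higher and 1 lower of 10, then 2 and 0. Neuron markers had 2 higher and 0 lower of 3 in both, the only tested islet marker was higher in both, and none of 5 red blood cell markers was called by edgeR. Only 3 of 13 neuron and 1 of 8 islet identifiers passed the filter. Islet markers summed to 1.04 to 2.25 CPM in exposed mutants and 0.0721 to 0.331 CPM in unexposed mutants. The filter keeps a nearly silent gene only where a group is higher, so such counts can follow from the filter. Exocrine pancreas markers had 0 higher and 1 lower of 12 in both, with summed levels of 7.18 to 609.5 CPM in exposed mutants, 86.3 to 1354.1 CPM in unexposed mutants, 4.93 to 41.6 CPM in exposed wild type and 25.6 to 187.5 CPM in unexposed wild type. Their part in the transporter changes was not tested.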
